A study of Mus musculus with 8 samples.

Results

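The 9 genes examined encode surface or secreted markers of mouse blood stem and progenitor cells and were chosen by name: Slamf1, Procr, Ly6a, Esam, Kit, Cd34, Cd48, Vwf and Tek. All 9 were found among the 19685 genes listed for long-term hematopoietic stem cells (LT-HSC) and the 18904 listed for multipotent progenitors (MPP), and all 9 passed the filter on low counts in both. Poly(A) RNA was sequenced with paired-end reads of 50 bases from flow-sorted bone marrow cells of 6-month-old mice of the strain given as CD57BL/6. Each of 4 groups, WT and KO in either population, had 2 libraries. All 4 groups came from mice 20 weeks after transplant, with marrow that was wild type (WT) or Tet1 KO, and used 10000 LT-HSC or 100000 MPP per library. The Tet1 protein oxidizes methylated cytosines in DNA. The Tet1 allele, the recipients' genotype, the share of host cells left and the sort gates are not stated. Levels below are in CPM, the usual count scale on which every library sums to the same total, and a ± is the SD of n = 2 libraries. Fold changes are log2 values from edgeR with their standard error (SE), adjusted p-values are Benjamini-Hochberg values from its quasi-likelihood test over all genes, and a gene is called when that value is under 0.05. Nothing given says that the libraries of a group came from separate animals. The p-values therefore set a group difference against the spread between these libraries, and that spread may be technical.

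Stem cells with long-term activity are commonly told from their progeny by surface proteins. Slamf1 encodes CD150, a receptor of the SLAM family kept by LT-HSC, and Cd48 encodes another member of that family, a membrane-anchored protein gained as cells leave the stem cell state. Procr encodes EPCR, the receptor for protein C. Ly6a encodes Sca-1, a small lipid-anchored protein, and Kit encodes the receptor for stem cell factor; both are used to define the primitive marrow fraction. Cd34 encodes a sialomucin that is low on adult mouse LT-HSC and higher on progenitors. Esam encodes a junctional adhesion molecule, Tek encodes Tie2, the receptor for angiopoietins, and Vwf encodes von Willebrand factor, a secreted clotting protein that marks platelet-biased stem cells. Several of these proteins are often part of a sort gate. With the gates unknown, a difference between LT-HSC and MPP in such a gene can have been set by the sort.

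The library totals ran from 4976459 to 5479731 counts for LT-HSC and from 11928659 to 12504581 for MPP, so that 3 counts correspond to 0.547 to 0.603 CPM in LT-HSC and 0.24 to 0.251 CPM in MPP; these floors cover counting error only. Tet1 counts did not separate the genotypes in LT-HSC (336 and 379 in KO, 332 and 428 in WT), so LT-HSC KO below stands for libraries with that label. MPP had 765 and 855 Tet1 counts in KO against 1207 and 1323 in WT (log2 fold change -0.62, adjusted p = 0.0282, a call that ended without any 1 of the 4 libraries). In each population the KO libraries were called lower for all 4 Y-linked genes checked, with summed levels of 12.3 and 14.4 CPM in LT-HSC KO against 143.4 and 177.2 CPM in WT. The sex of donors and recipients is not given, so sex and genotype cannot be told apart. The LT-HSC KO libraries also held more reads in long genes that were nearly silent in WT. These genes were chosen by that low WT level, so the WT side was low in advance. The median was 0.329 and 0.29 counts per kb of gene span over 378 such genes, against 0.0117 and 0.0117 in LT-HSC WT, and it was 0.016 to 0.0297 over 656 genes in the MPP libraries. This level is called background below, and its share is given beside the markers it touches.

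In WT cells the markers split into 3 sets, and the plot of levels by library shows them. Vwf, Tek, Esam, Slamf1 and Procr were higher in LT-HSC, Cd48 and Cd34 were higher in MPP, and Kit and Ly6a were abundant in both, Ly6a with a wide spread in LT-HSC. In the test of WT LT-HSC against WT MPP 8 of the 9 were called, 6 higher and 2 lower in LT-HSC, against 34.3% of all genes called in either direction (17.4% higher and 16.9% lower). The median log2 fold change of the markers was 2.34, and that of all genes tested was 0.02.

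**Figure D1:**
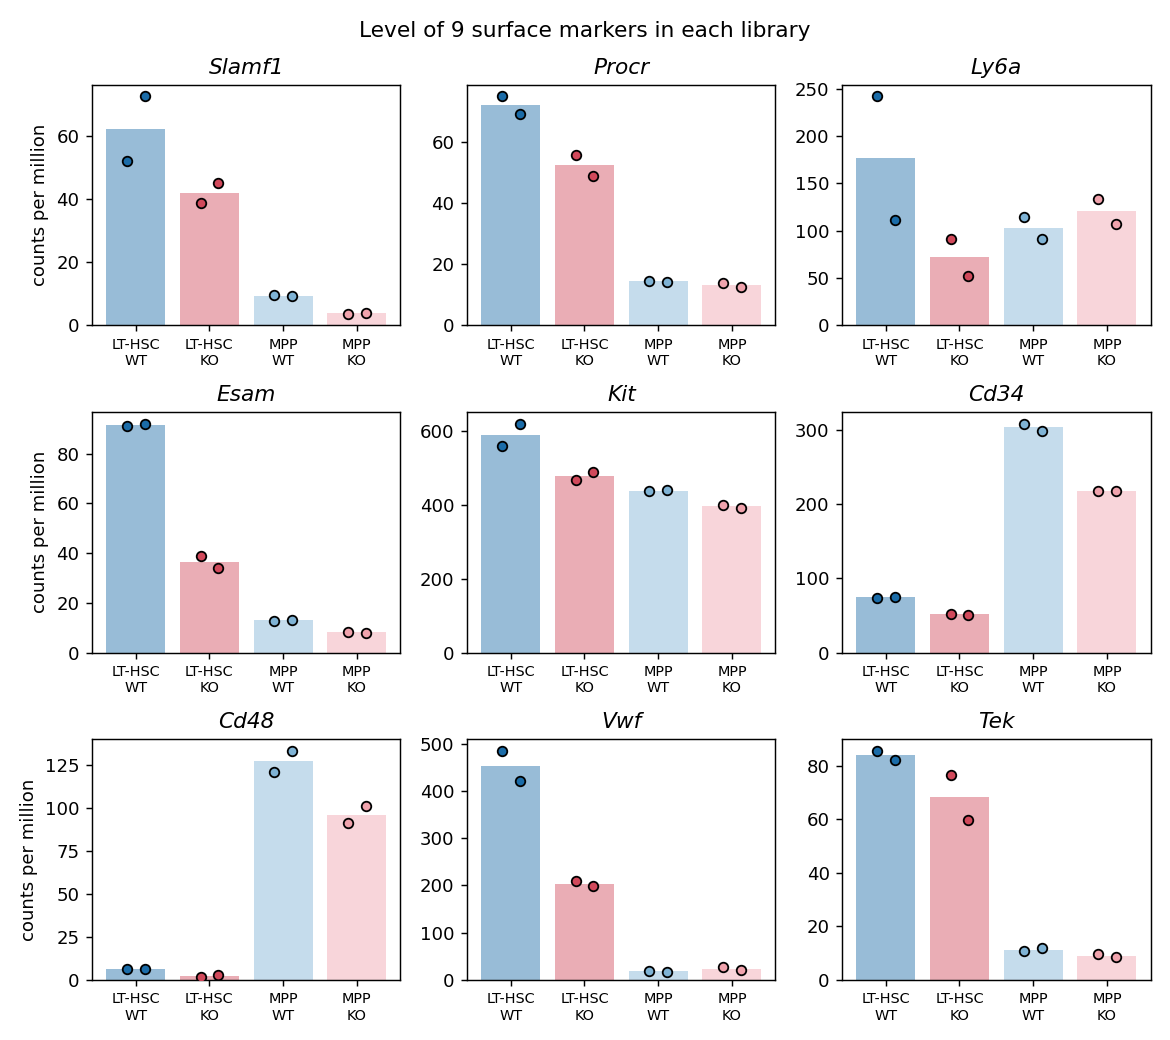
Level of each of the 9 marker genes in CPM (vertical axes, each starting at 0, with a scale of their own) in the 4 groups; bars are means and points are the 2 libraries of each group. All 9 genes are lower in both LT-HSC KO libraries than in either LT-HSC WT library, while Cd34 and Cd48 are highest in MPP.

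Vwf had the largest difference between the populations. It stood at 485.2 and 421.2 CPM in the LT-HSC WT libraries and at 19.3 and 17.4 CPM in the MPP WT libraries, a 25.2-fold difference (log2 4.65, SE 0.18, adjusted p = 6.26e-05). Tek was at 85.6 and 82.2 CPM in LT-HSC WT and at 10.8 and 11.8 CPM in MPP WT, a 7.53-fold difference. Both genes are also active in endothelial cells, and Vwf in megakaryocytes, so their level alone does not name a cell type. Esam was at 91.1 and 92.0 CPM in LT-HSC WT against 12.8 and 13.2 CPM in MPP WT, 7.13-fold higher. Slamf1 was at 52.0 and 72.5 CPM against 9.64 and 9.31 CPM, 6.62-fold higher, and Procr was at 75.0 and 69.3 CPM against 14.7 and 14.4 CPM, 5.05-fold higher. For these 5 genes the lowest LT-HSC WT library lay above both MPP WT libraries by a wide margin, and the adjusted p-values ran from 6.26e-05 (Vwf) to 0.00035 (Slamf1).

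The progenitor markers ran the other way. Cd48 was at 6.2 and 6.23 CPM in LT-HSC WT, from 34 and 31 counts, and at 120.9 and 133.4 CPM in MPP WT. It was thus 20.1-fold lower in LT-HSC (log2 fold change -4.33, SE 0.17, adjusted p = 6.42e-05). Cd34 was at 73.7 and 75.4 CPM in LT-HSC WT and at 308.6 and 299.1 CPM in MPP WT, 4.02-fold lower in LT-HSC (adjusted p = 0.000212). The gene model Gm16897 overlaps Cd34 on the opposite strand and held 5 to 19 counts per LT-HSC library. Whether strand was used in counting is not stated, so reads of the 2 genes may not be told apart in the shared stretch.

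Kit and Ly6a, the classical markers of the primitive fraction, were abundant in both populations. Kit was at 560.6 and 620.7 CPM in LT-HSC WT and at 438.1 and 440.1 CPM in MPP WT (log2 0.45, SE 0.12, adjusted p = 0.0345). Without MPP WT replicate 1 or 2 the Kit call ended (adjusted p = 0.377 and 0.357). Ly6a was not called, with 242.0 and 111.7 CPM in LT-HSC WT and 114.3 and 91.8 CPM in MPP WT (log2 fold change 0.82, SE 0.38, adjusted p = 0.138). The LT-HSC WT libraries differed from each other by more than either MPP WT library differed from the nearer of them, and the call was made in DESeq2 (adjusted p = 0.0452) and without LT-HSC WT replicate 2 (log2 fold change 1.27, adjusted p = 0.0037) or MPP WT replicate 1 (0.97, 0.0112). Ly6a lies in a cluster of related Ly6 genes, and how reads divide among similar members is uncertain.

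Levels of different genes were compared per length, as CPM per kb of merged exons in GENCODE M21. In LT-HSC WT the order was Ly6a (146.8 ± 76.4), Kit (66.3 ± 4.77), Procr (35.5 ± 1.98), Esam (31.9 ± 0.239), Vwf (28.2 ± 2.82), Tek (17.8 ± 0.51), Cd34 (10.2 ± 0.158), Slamf1 (10.1 ± 2.36) and Cd48 (5.23 ± 0.0147), all in CPM per kb. Cd34 and Slamf1 overlapped in this order, and every other pair of neighbours was separate in its library values. In MPP WT, on the same scale, Cd48 led at 106.9 ± 7.45, ahead of Ly6a (85.5 ± 13.2), Kit (49.3 ± 0.155) and Cd34 (41.7 ± 0.922). The other 5 markers in MPP WT were at 1.14 (Vwf) to 7.15 (Procr) CPM per kb. So Cd48 was last of 9 in LT-HSC WT and first in MPP WT, and Vwf moved from place 5 to last. These places depend on the merged exon lengths, 16.1 kb for Vwf and 1.19 kb for Cd48. Other lengths were not tried, and the annotation used for counting is not stated.

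The same contrast was made in the libraries labelled KO, where 8 of 9 markers were called, 5 higher and 3 lower in LT-HSC, against 50.8% of all genes (27.2% higher and 23.6% lower). By library size alone 64.1% of the genes called there were higher in LT-HSC, against 53.5% with TMM normalization, and the median of all genes moved from -0.01 to 0.13. Slamf1 was 9.83-fold higher in LT-HSC KO than in MPP KO, Vwf 7.83-fold, Tek 6.84-fold, Esam 4.06-fold and Procr 3.55-fold. Cd48 was 50.0-fold lower in LT-HSC KO (log2 -5.64, and -7.08 with the background subtracted, which equalled 100% and 50% of its LT-HSC KO counts), and Cd34 was 4.64-fold lower. These 7 calls held in each of the 9 alternatives tried. Kit was not called (log2 fold change 0.13, SE 0.12), and Ly6a was lower in LT-HSC KO than in MPP KO (log2 -0.89, SE 0.25, adjusted p = 0.0201). The Ly6a call ended without LT-HSC KO replicate 2 (adjusted p = 0.119) and with the background subtracted (0.0952).

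**Figure D2:**
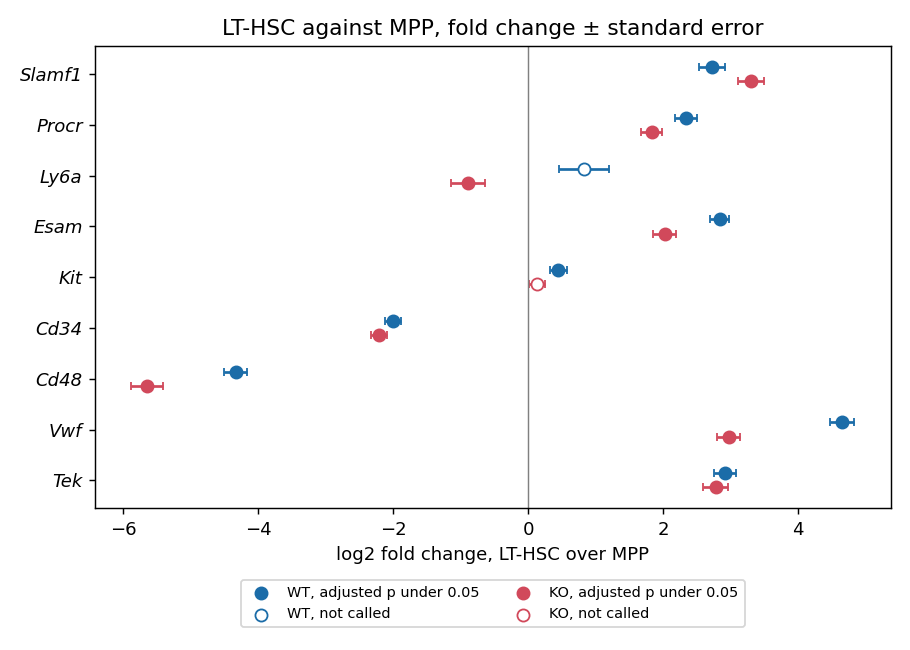
Log2 fold change of LT-HSC over MPP (horizontal axis) for each marker, in the WT libraries (blue) and the KO libraries (red); bars are 1 SE and filled points have an adjusted p under 0.05. Vwf, Tek, Esam, Slamf1 and Procr lie to the right of 0 and Cd34 and Cd48 to the left in both, and Ly6a lies on different sides.

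Slamf1 and Cd48 are neighbours in the SLAM gene cluster of chromosome 1, with Cd48 at 173612140 to 173635389 and Slamf1 at 173697258 to 173731315 on mm9, both on the plus strand and 61.9 kb apart. Their levels ran in opposite directions between the populations. No scaling between libraries can alter their ratio within a library, although it depends on the lengths of both genes. Slamf1 had 8.38 and 11.6 counts per Cd48 count in the LT-HSC WT libraries and 26.0 and 16.4 in LT-HSC KO. The KO ratios rest on 8 and 14 Cd48 counts, of which 0 and 7 were left with the background subtracted. In MPP it had 0.0798 and 0.0698 counts per Cd48 count in WT and 0.0402 and 0.0399 in KO. The ratio was thus higher in both KO libraries than in both WT libraries of LT-HSC and lower in both KO libraries of MPP, with groups that did not overlap in either. With 2 libraries a group an exact permutation test cannot reach 0.05, so none was made.

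**Figure D3:**
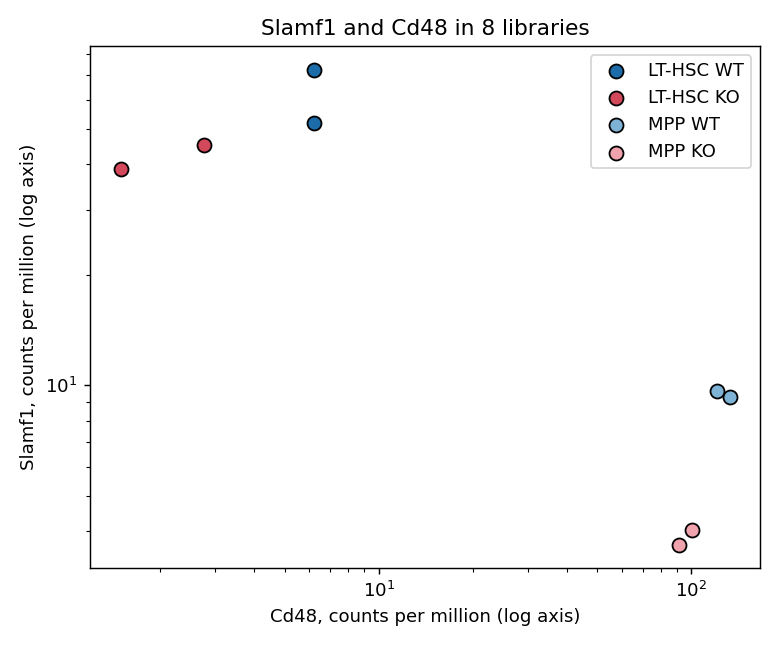
Slamf1 level against Cd48 level, both in CPM on log axes, 1 point per library, coloured by group. The LT-HSC libraries sit at the upper left and the MPP libraries at the lower right, and within each population the KO libraries are lower on both axes.

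The stretches before the starts of Slamf1, Cd48 and Cd34 are shown, as these genes were called lower in KO cells of at least 1 population. Whether Tet1 acts at their CG sites was not tested. RefSeq start sites on GRCm38.p6 were found for 6 of the 9 markers: Slamf1, Procr, Kit, Cd34, Cd48 and Tek. None was found for Esam, Vwf and Ly6a, which were also called lower in LT-HSC KO. Each sequence is the 250 bases before the start on the plus strand, 5′ to 3′, with CG pairs in capitals.
Slamf1, chr1:171766882-171767131: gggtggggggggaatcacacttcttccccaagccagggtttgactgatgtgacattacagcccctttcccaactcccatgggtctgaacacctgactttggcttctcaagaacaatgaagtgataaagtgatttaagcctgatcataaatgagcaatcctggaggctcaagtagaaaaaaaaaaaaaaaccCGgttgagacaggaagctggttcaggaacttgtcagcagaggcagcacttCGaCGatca
Cd48, chr1:171681742-171681991: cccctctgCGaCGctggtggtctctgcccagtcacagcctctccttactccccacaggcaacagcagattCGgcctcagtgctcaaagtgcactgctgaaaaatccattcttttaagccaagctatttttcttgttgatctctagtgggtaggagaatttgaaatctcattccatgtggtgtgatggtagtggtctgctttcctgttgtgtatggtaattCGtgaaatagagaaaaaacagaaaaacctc
Cd34, chr1:194938571-194938820: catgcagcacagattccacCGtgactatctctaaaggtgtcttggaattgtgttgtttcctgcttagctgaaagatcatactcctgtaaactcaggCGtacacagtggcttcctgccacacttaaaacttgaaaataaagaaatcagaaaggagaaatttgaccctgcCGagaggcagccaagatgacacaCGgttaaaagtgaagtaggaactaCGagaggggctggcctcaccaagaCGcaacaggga
These windows held 3 CG pairs for Slamf1, 4 for Cd48 and 6 for Cd34, against a median of 6 over 27025 genes. Tek had 2, Procr 13 and Kit 17, and 78.4% of genes had as few as Kit or fewer. The GATA motif in the form AGATAA, searched on both strands, was in none of the 6 windows and in 10.3% of all. Other forms of the GATA motif were not searched, and the printed Slamf1 window holds tgataa. The ETS motif AGGAAG, searched on both strands and not overlapping the GATA motif in letters, was found once each in the windows of Slamf1, Kit and Cd34 and in 29.2% of all. DNA methylation was not analysed here.

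How the stem cell markers differ with the genotype of the transplanted marrow is the question of the LT-HSC comparison. All 9 markers were lower in both KO libraries than in either WT library, against 29.4% of all genes with such a pattern. Of the 9, edgeR called 5 lower (Esam, Vwf, Ly6a, Cd48 and Cd34), against 10.9% of all genes called lower and 33.4% in either direction. None was called higher: the count was 0 by edgeR, 0 by DESeq2 and 0 with unadjusted p-values under 0.05. The median log2 fold change of the markers was -0.56, against 0.03 for all genes and -0.18 for genes with a mean log2 CPM above 6. DESeq2 called only Esam and Vwf. Fewer cells of a type and less RNA per cell cannot be told apart in these bulk samples.

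Esam and Vwf had the firmest differences. Esam, the adhesion molecule, was at 39.02 and 34.2 CPM in LT-HSC KO against 91.1 and 92.0 CPM in WT, so it was 2.5-fold lower (log2 -1.32, SE 0.18, adjusted p = 0.00138). Vwf, the clotting factor, was at 208.7 and 197.6 CPM in KO against 485.2 and 421.2 CPM in WT, 2.24-fold lower (log2 -1.16, SE 0.17, adjusted p = 0.00196). Set against Kit in the same library, Vwf counts were 44.5% and 40.4% of Kit counts in LT-HSC KO and 86.6% and 67.9% in WT. Esam and Vwf were called in each of the 10 alternatives, with log2 fold changes from -1.45 to -1.17 and from -1.35 to -1.02. The background made up 1.44% and 1.73% of Esam counts and 4.11% and 4.1% of Vwf counts in the KO libraries.

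Ly6a, which encodes Sca-1, was at 91.3 and 52.4 CPM in LT-HSC KO against 242.0 and 111.7 CPM in WT (log2 -1.32, SE 0.40, adjusted p = 0.0349). The groups did not overlap, but the higher KO library lay close to the lower WT library. Without KO replicate 2 the call ended (-0.94, adjusted p = 0.138), as it did in DESeq2 (0.153), without the filter (0.0937) and with the background subtracted (0.102). Without WT replicate 1 the log2 fold change was -0.60. With the replicate number as a block it was -1.28, and what libraries of the same number share is not stated. Cd48 was at 1.49 and 2.77 CPM in KO, from 8 and 14 counts, against 6.2 and 6.23 CPM in WT (log2 fold change -1.55, SE 0.49, adjusted p = 0.0403). The background equalled 100% and 50% of these KO counts, and the call ended with it subtracted (-2.99, adjusted p = 0.0828). It also ended in DESeq2 (0.0864), without the filter (0.0551) and without KO replicate 1, KO replicate 2 or WT replicate 1 (0.298, 0.111 and 0.0763).

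Cd34 was at 52.6 and 51.2 CPM in LT-HSC KO against 73.7 and 75.4 CPM in WT (log2 -0.52, SE 0.17, adjusted p = 0.0432). Both pairs of libraries were close together and well apart from each other. The Cd34 call ended in DESeq2 (adjusted p = 0.107), with the background subtracted (-0.39, 0.158) and without KO replicate 1, KO replicate 2 or WT replicate 1 (0.222, 0.308 and 0.0958).

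The remaining 4 markers did not pass. With the replicate number as a block these 4 were called lower too, and what libraries of the same number share is not stated. Slamf1 was at 38.8 and 45.3 CPM in LT-HSC KO and 52.0 and 72.5 CPM in WT (log2 fold change -0.56, 95% interval -1.02 to -0.11, adjusted p = 0.0607). Procr was at 55.8 and 49.0 CPM in KO and 75.0 and 69.3 CPM in WT (-0.46, -0.89 to -0.04, adjusted p = 0.0892). The intervals of these receptors lie below 0 before adjustment for all genes. The Slamf1 call was made without WT replicate 1 (adjusted p = 0.0102) and that of Procr without WT replicate 2 (0.0255), and with all 8 libraries in 1 fit Slamf1 (0.0251), Procr (0.0218) and Kit (0.0256) were called. Kit was at 468.8 and 489.1 CPM in KO and 560.6 and 620.7 CPM in WT (-0.30, -0.66 to 0.05), and Tek, the angiopoietin receptor, at 76.4 and 59.9 CPM in KO and 85.6 and 82.2 CPM in WT (-0.30, -0.74 to 0.14). The background was 11% and 12.9% of the Tek counts in KO, the largest shares after Cd48, and the genes span 135.7 kb (Tek) and 23.2 kb (Cd48).

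**Figure D4:**
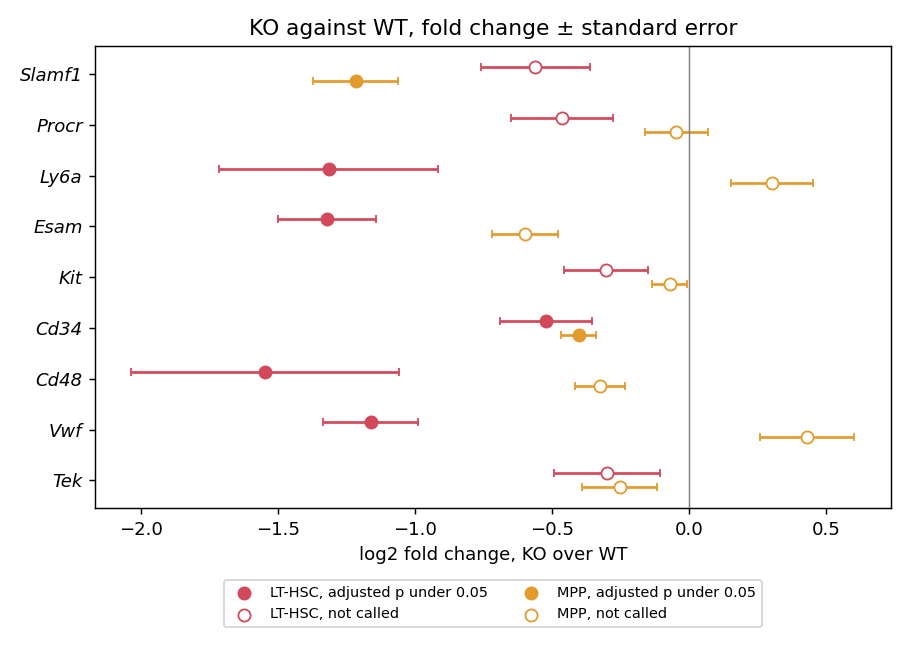
Log2 fold change of KO over WT (horizontal axis) for each marker in LT-HSC (red) and MPP (orange); bars are 1 SE and filled points have an adjusted p under 0.05. In LT-HSC all 9 points lie left of 0 and 5 are filled, while in MPP Slamf1 and Cd34 are filled and Ly6a and Vwf lie right of 0.

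**Figure D5:**
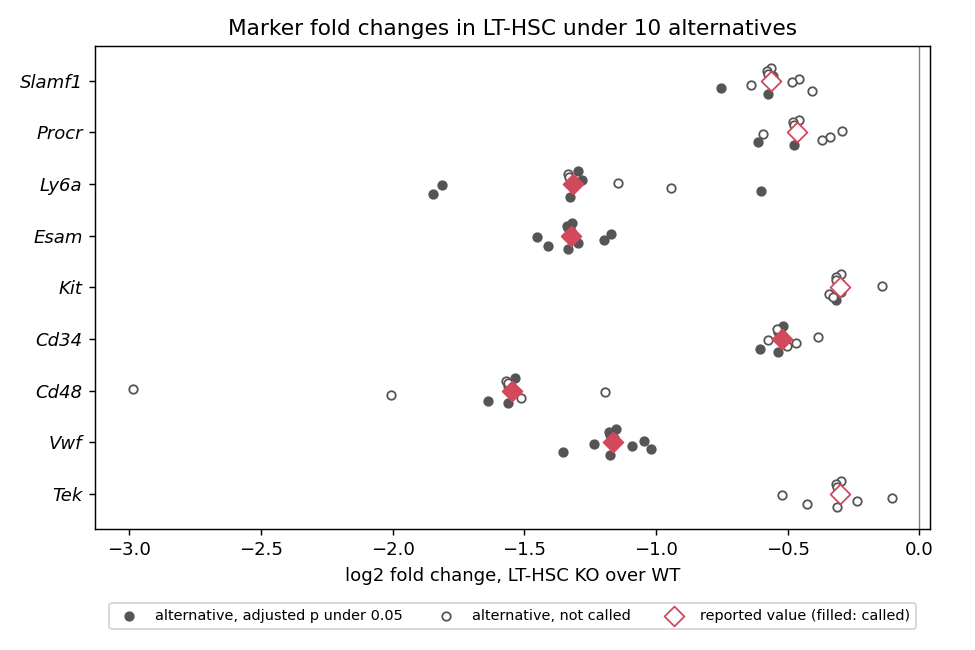
Log2 fold change of LT-HSC KO over WT (horizontal axis) for each marker as reported (diamonds) and under 10 alternatives (circles); filled symbols have an adjusted p under 0.05. Esam and Vwf stay filled in all 10, Ly6a in 6, Cd34 in 5 and Cd48 in 4.

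In MPP the comparison of KO with WT called 2 of the 9 markers lower, Slamf1 and Cd34, against 2.46% of all genes called lower and 7.2% in either direction. The count called higher was 0 by edgeR, 0 by DESeq2 and 0 with unadjusted p-values under 0.05, and without MPP KO replicate 2 it was 2 with unadjusted p-values. Of all genes called in MPP 65.9% were higher with TMM normalization and 48.6% by library size alone. Slamf1 was at 3.68 and 4.03 CPM in MPP KO, from 46 and 50 counts, against 9.64 and 9.31 CPM in WT, from 115 and 112. Its log2 fold change was -1.22 (SE 0.16, adjusted p = 0.0189), or 2.33-fold lower. Cd34 was at 217.7 and 217.9 CPM in KO and at 308.6 and 299.1 CPM in WT (log2 fold change -0.40, SE 0.06, adjusted p = 0.0301). In both genes the libraries of a group were nearly equal. Both calls ended without any 1 of the 4 MPP libraries (adjusted p = 0.0745 to 0.304 for Slamf1 and 0.148 to 0.328 for Cd34), and that of Cd34 also ended with all 8 libraries in 1 fit (0.0524).

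The other 7 markers did not pass in MPP. Esam came nearest, at 8.4 and 7.9 CPM in KO against 12.8 and 13.2 CPM in WT (log2 fold change -0.60, 95% interval -0.91 to -0.29, adjusted p = 0.0528), and it was called by library size alone (-0.68, adjusted p = 0.0403). Cd48 was at 91.5 and 101.0 CPM in KO and 120.9 and 133.4 CPM in WT (-0.32, -0.56 to -0.09, adjusted p = 0.104). Vwf was at 27.0 and 19.8 CPM in KO and 19.3 and 17.4 CPM in WT (0.43, -0.01 to 0.87), with both KO libraries above both WT libraries. Ly6a overlapped between the genotypes, with 133.6 and 107.3 CPM in KO and 114.3 and 91.8 CPM in WT (0.30, -0.08 to 0.69). Kit (-0.07, -0.23 to 0.09), Tek (-0.25, -0.60 to 0.09) and Procr (-0.05, -0.34 to 0.25) had intervals that include 0. In CPM, 7 of the 9 markers were lower in both KO libraries than in either WT library, against 37.8% of all genes, and Vwf was higher, against 20.9%. With the replicate number as a block 7 markers were called, 5 lower and 2 higher (Ly6a and Vwf). What libraries of the same number share is not stated.

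Whether the KO difference itself differed between the populations was tested with all 8 libraries. It was more negative in LT-HSC for 3 of the 9 markers (Vwf, Cd48 and Esam), against 8.5% of all genes in that direction and 22.1% in either. Among these 3 Vwf had the largest difference, a log2 value of -1.60 (SE 0.23, adjusted p = 0.00422), and it was called in each of the 13 alternatives. That of Cd48 was -1.23 (SE 0.31, adjusted p = 0.0267) and that of Esam -0.73 (SE 0.19, adjusted p = 0.029). Each of these was called in 7 of the 13 alternatives, and the Esam call ended with the background subtracted (-0.58, adjusted p = 0.0864). With the background subtracted the Cd48 value was -2.69 (adjusted p = 0.0391). The Cd48 call ended without LT-HSC KO replicate 1 (-0.85, adjusted p = 0.118), LT-HSC WT replicate 1 (0.0585) or any MPP library (0.0588 to 0.0779), and the Esam call without LT-HSC KO replicate 2 (0.068) or any MPP library (0.0738 to 0.134). Ly6a had a difference of -1.62 (SE 0.53) that did not pass (adjusted p = 0.0578), and it was called by DESeq2 (0.0139) and without LT-HSC WT replicate 2 (0.0118). Slamf1 had 0.65 (SE 0.27, adjusted p = 0.114). It was called without LT-HSC WT replicate 2 (0.86, adjusted p = 0.0344). Cd34, with -0.13 (95% interval -0.43 to 0.18), and Tek, with -0.06 (-0.58 to 0.47), did not pass.

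Other surface markers of the 2 populations were taken from a list of 22 genes. The counts of this list and those that follow stand beside 22.5% of all genes called higher and 10.9% lower in LT-HSC KO. In MPP KO these shares were 4.74% and 2.46%. In LT-HSC KO 6 of the 18 tested were lower, 3 were higher and 9 did not pass, with a median log2 fold change of -0.44. Thy1, a marker kept at low level by stem cells, was at 3.55 and 4.74 CPM in KO and 20.1 and 21.7 CPM in WT (-2.33, SE 0.33, adjusted p = 0.00153). Itga2b, the platelet integrin CD41, had a log2 fold change of -1.47 (SE 0.22), and Itga6, an integrin of primitive cells, had -1.07 (SE 0.15). Cd82, a tetraspanin of quiescent stem cells, was higher, with 1.09 (SE 0.22). Fcgr3, an Fc receptor of myeloid progenitors, was called higher on 24 and 26 counts in KO, with 1 and 0 in WT. In MPP KO 2 of 21 were lower and 5 higher, with a median of 0.05. Thy1 (-0.75, SE 0.12) and Itga6 (-0.59, SE 0.06) were the 2 called lower there, and Prom1 (1.12, SE 0.18) and Il7r, the interleukin-7 receptor of lymphoid progenitors (1.102, SE 0.11), had the largest rises, with calls that held in 3 and 7 of 10 alternatives.

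The SLAM cluster holds receptors that mostly bind their own kind, while Cd48 binds Cd244. In LT-HSC KO 3 of its 7 tested genes were lower, 1 was higher and 3 did not pass. Cd84 was at 64.6 and 66.0 CPM in KO against 97.6 and 112.7 CPM in WT (-0.69, SE 0.16, adjusted p = 0.011). Slamf8, called lower, had 10 and 12 counts in KO and 35 and 28 in WT, and Slamf6, called higher, had 11 and 15 against 2 and 3. These calls held in 5 of 10 (Slamf8) and 4 of 9 (Slamf6) alternatives. Slamf6 did not pass the filter on low counts in 1 alternative, and the background share of these low counts was not worked out. Cd244, the partner of Cd48, had 4 and 9 counts in KO, 22 and 15 in WT and was not called (adjusted p = 0.0837). In MPP KO 1 of 8 was lower (Slamf1) and 2 were higher: Slamf7, at 93.1 and 97.7 CPM against 39.7 and 43.5 CPM (1.27, SE 0.08, adjusted p = 0.00403), and Slamf6, with 1.12 (SE 0.10). So Slamf1 was called lower in MPP KO and Slamf7 and Slamf6, from the same cluster, were called higher. In the Ly6 cluster 2 of 5 genes tested were lower in LT-HSC KO, Ly6a and Ly6e (-0.70, SE 0.16), and 0 of 6 were called in MPP KO by edgeR, where the nearest was Ly6c2 (0.68, adjusted p = 0.0654).

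Among 21 ligands, receptors and partners of the markers, 7 of the 17 tested were lower and 3 higher in LT-HSC KO, and 1 of 16 was lower and 2 higher in MPP KO. Angpt1, the ligand of Tek, was abundant in the LT-HSC themselves, at 391.9 and 465.4 CPM in KO and 573.2 and 707.9 CPM in WT (-0.58, SE 0.17, adjusted p = 0.0286), a call that held in 6 of 10 alternatives. Kitl, the ligand of Kit, had 16 and 35 counts in KO and 4 and 12 in WT and was not called (log2 fold change 1.66, adjusted p = 0.086); with the background subtracted its value was -0.29. Thbd, which acts with Procr on protein C, was called lower (-1.57, SE 0.27), as was Gp1bb, a subunit of the platelet receptor for von Willebrand factor (-2.35, SE 0.25). Ptprb, a phosphatase that acts on Tek, was called higher on 55 and 32 counts in KO and 2 and 2 in WT. Cd2, a receptor for Cd48 and mostly a T cell gene, was called higher on 13 and 32 counts against 1 and 0. Both Ptprb and Cd2 failed the filter on low counts in some alternatives, and the background share of their counts was not worked out. In MPP KO F2r, the thrombin receptor, was called lower (-0.61, SE 0.08) and Cd2 higher (0.59, SE 0.10), calls that held in 5 and 3 of 10 alternatives.

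Several markers are also made by endothelial cells, megakaryocytes or mast cells, whose lists were read in the same libraries. Of 11 endothelial genes tested, 3 were higher and 0 lower in LT-HSC KO by edgeR, against 22.5% and 10.9% of all genes. The summed level of the list was 311.3 and 346.9 CPM in KO against 394.9 and 415.2 CPM in WT. The defining gene Cdh5 had 21 and 13 counts in KO and 2 and 2 in WT, and Flt1 had 29 and 51 against 5 and 3. Plvap had 26 and 16 against 7 and 6, a call that held in 3 of 10 alternatives. Cdh5 and Flt1 each failed the filter on low counts in 1 alternative. The background share of these low counts was not worked out. Cldn5 and Lyve1 are not listed in either table. Of 12 megakaryocyte genes tested 8 were lower and 0 higher, with a summed level of 1203 and 1204 CPM in LT-HSC KO against 2071 and 2097 CPM in WT; Gp1bb, Treml1 (-2.11), Itga2b and Selp (-1.46) had the largest falls. In MPP that list summed to 295.7 to 326.1 CPM in KO and 318.4 to 349.1 CPM in WT. The mast cell list had 1 higher (Cpa3, 1.35) and 2 lower (Fcer1a, with 1 and 3 counts in KO, 42 and 21 in WT, and Gata2, -0.78) of 4 tested in LT-HSC KO.

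All 11 erythroid genes tested were higher in LT-HSC KO (median 2.36 on the log2 scale), with a summed level of 4966 and 5721 CPM in KO against 1336 and 1479 CPM in WT. Of 9 stromal genes 7 were higher, summing to 499.8 and 695.6 CPM in LT-HSC KO against 40.4 and 42.2 CPM in WT. Mature myeloid genes had 6 higher and 1 lower of 8, and mature lymphoid genes 1 higher and 3 lower of 6. Of all genes 22.5% were called higher and 10.9% lower. In MPP KO 5 of 11 erythroid, 1 of 3 stromal, 5 of 9 myeloid and 3 of 10 lymphoid genes were higher and 0 lower by edgeR. The shares of all genes there were 4.74% higher and 2.46% lower. These lists moved with the marker differences in the same LT-HSC KO libraries, and their part in those differences was not tested. With the background subtracted Esam and Vwf were still called in LT-HSC (adjusted p = 0.0103 and 0.0119). That subtraction goes by gene span alone and does not bear on the part of these lists.

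For each marker the 2 genes with the most similar pattern were found by the root mean square difference of centred log2 CPM over the 8 libraries, among 10270 genes with a mean of at least 50 counts in each population. The libraries fall into 4 groups, so this likeness mostly reflects group means. Itgal, an integrin subunit of leukocytes, was among the 2 genes nearest to Cd48 (0.736). Esam was nearest to Soat2 (0.131), Vwf to Clca1 (0.294), Tek to Myo5c (0.235), Procr to Adcy6 (0.0856) and Slamf1 to Trim47 (0.241). Ly6a was nearest to Crip1 (0.176), Cd34 to Gm2a (0.112) and Kit to Ddx58 (0.0415).

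The markers lie on 7 chromosomes and, outside the SLAM cluster, far apart. On mm9 Cd34 is on chromosome 1 at 196765015 to 196787486, Procr on chromosome 2 at 155576853 to 155581207, Tek on chromosome 4 at 94405980 to 94541667 and Kit on chromosome 5 at 75970941 to 76052747. Vwf is on chromosome 6 at 125496792 to 125636697, Esam on chromosome 9 at 37335663 to 37345904 and Ly6a on chromosome 15, minus strand, at 74825308 to 74828064. By the authors' deposited tables, 4 of the 9 had an FDR under 0.05 in LT-HSC (Ly6a, Esam, Vwf and Cd48) and 1 in MPP (Slamf1, FDR 0.000832), against 36% and 7.9% of all listed genes in either direction. All of these markers were lower in KO, as were 1668 of the 19685 genes listed for LT-HSC and 487 of the 18904 listed for MPP at that FDR. Cd34 had an FDR of 0.204 in LT-HSC and 0.356 in MPP in the authors' deposited table.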

How the data were processed

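The authors deposited 1 table per population of raw read counts, with a row for each Ensembl gene. Beside these counts the authors gave a log2 fold change and mean log2 CPM, a likelihood ratio score, and a p-value and FDR per gene, per the file headers. Per the submitters' processing notes, CASAVA, TopHat and the mm9 build were used; versions, counter and annotation are not stated there. The genotype and replicate number in a column's name gave its sample, and the number before the replicate in their names is not explained.

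Counts were filtered with filterByExpr, scaled by TMM and tested with edgeR 4.0.16 in R 4.3.3 over 15684 (LT-HSC), 14902 (MPP), 16551 (interaction), 14660 (WT populations) and 16150 genes (KO populations). The script was tested on simulated data. The SE was taken from the log2 fold change and its F statistic (ratio to the root of F). Counts of 2 libraries of a group differed by more than sampling noise (chi-square per degree of freedom 10.4 to 14.9). Alternatives were DESeq2 1.42.0, library size alone, no filter, a replicate block, each library left out, all 8 libraries in 1 fit, and a subtracted background. The background is the median count per kb of span over genes spanning more than 100 kb with a WT mean under 1 CPM. Exon lengths come from GENCODE M21, matched by Ensembl ID for 9 of 9 markers.

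The markers and 12 other lists were chosen with earlier results of these data known. Named genes were the 9 markers, up to 4 called genes per list in LT-HSC and 2 in MPP by fold change, and the 2 nearest profiles per marker. Angpt1, Itga6, Kitl, Cd244, Ly6c2 and Gm16897 were named after their values were seen. A few genes that this rule names are not reported here.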

Additional observations from a re-analysis of the deposited data

Results flagged for a closer look

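The KO difference was larger in LT-HSC than in MPP for 3 markers by a test of the difference itself. The log2 difference of the KO effect, LT-HSC minus MPP, was -1.60 for Vwf (adjusted p = 0.00422), -1.23 for Cd48 (adjusted p = 0.0267) and -0.73 for Esam (adjusted p = 0.029). Vwf was lower in both LT-HSC KO libraries than in WT. It was higher in both MPP KO libraries but was not called there (log2 fold change 0.43, edgeR adjusted p = 0.196). Cd48 rests on 8 and 14 counts in LT-HSC KO, and Esam was lower in KO libraries in either population, without a call in MPP.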

How the results depend on the processing

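Having 2 libraries per group is the main limit. Leaving out 1 of them, with the lone sample assumed to vary like the other groups, gave 2325 to 6756 called genes in LT-HSC against 5246, 0 to 268 in MPP against 1073, 1132 to 4237 for the interaction against 3663, 2464 to 7069 between the WT populations against 5022 and 5370 to 6542 between the KO populations against 8197. The markers called ran from 2 to 6, 0 to 0, 1 to 5, 7 to 9 and 7 to 8. Where MPP fell to 0 of all genes, edgeR gave 858 to 889 lower and 1230 to 1362 higher genes at an unadjusted p under 0.05. With the background subtracted the counts were 2237 in LT-HSC, with 2 markers, and 2130 for the interaction. DESeq2 called 2 markers in LT-HSC and no filter 3, and without a filter 575 genes were called in MPP. With all 8 libraries in 1 fit 8 markers were called in LT-HSC, and 500 genes with 1 marker in MPP. Library size alone moved the median log2 fold change of the interaction from 0.03 to 0.12.

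The labels number the replicates without saying what a number shares. Same-numbered libraries deviated together (correlation 0.6 in LT-HSC and 0.804 in MPP, across genes), as a hint from the data. With the replicate number as a block 8824 genes and all 9 markers (lower) were called in LT-HSC, 7234 genes and 7 markers in MPP (5 lower, adding Esam, Cd48 and Kit, and Ly6a and Vwf higher), 7940 genes and 7 markers for the interaction and 7819 genes between the WT populations.

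Signs that turned were all of values that did not pass: Tet1 in LT-HSC ran from -0.29 to 0.083 and Procr in MPP from -0.12 to 0.019 with 1 library left out. The interaction value of Tek ran from -0.25 to 0.11 in that way and was 0.035 by library size alone, and that of Cd34 was 0.010 with the background subtracted. The cause of these shifts was not tested.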
